A study of Mus musculus with 14 samples.

Results

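The genes described here are Trp53i11, Nptx2, Golga7b, Scml4, Barx2, Adm, Car3 and Nrgn, 8 of the 14502 genes with 10 or more counts over an EGF culture and a BMP4 culture of neural stem cells. They were chosen by the measured ratio of the EGF culture over the BMP4 culture, so that ratio and every value of the same contrast is given as a description with no test. What the choice did not use is how the transcripts spread over the cells of the EGF culture, whether they went with cycling, whether they were found in the same cells, and their levels in freshly isolated cells and in neurosphere RNA.

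Neural stem cells of the adult subventricular zone divide in culture under epidermal growth factor (EGF), a mitogen that signals through the receptor Egfr and the ERK kinases. Bone morphogenetic protein 4 (BMP4) acts through SMAD proteins and is known to bring such cells into a quiescent, astrocyte-like state. The 8 genes belong to unrelated families: Trp53i11 was named as a gene induced by p53, Nptx2 encodes a secreted neuronal pentraxin that clusters AMPA receptors, Golga7b encodes a partner of the palmitoylating enzyme Zdhhc5, and Scml4 a Polycomb-group protein. Barx2 encodes a homeobox transcription factor, Adm the vasodilator peptide adrenomedullin, Car3 a cytosolic carbonic anhydrase, and Nrgn neurogranin, a calmodulin-binding protein of neurons.

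The cells came from adult mice, and single-cell libraries were made with the 10x Genomics oligo(dT) method. One library each held wildtype cells cultured for 3 days with EGF or with BMP4, and 1 library each held freshly isolated, untreated cells of APLP1-/- mice and of wildtype mice, with cells of several animals pooled under hash tags that were not used here. The fourth kind of sample was neurosphere RNA: CPEB4 antibody precipitates of CPEB4-/- and of wildtype neurospheres, wildtype IgG precipitates, and wildtype input RNA, with 2 libraries in each of the 4 groups. The EGF library held 1410 cells and 33603623 counts (median 22866.5 per cell), and the BMP4 library 887 cells and 17313999 counts (median 17355). Levels are given as CPM, the counts of a gene scaled to a library total of 1000000 counts, and CPM are not corrected for gene length. The APLP1-/- library held 1879 cells with a median of 424 counts and the wildtype fresh library 2209 cells with a median of 364. The 8 neurosphere libraries held 10054346 to 17466296 counts. No label says that replicates came from separate cultures, so p-values measure the spread between these libraries only.

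As a check of the labels, the stem cell gene Sox2 was found in 91.5% of EGF cells and 88.1% of BMP4 cells, Nes in 94.96% and 12.5%, and the astrocyte gene Gfap in 0.142% and 37.1%. All 15 measured genes of a BMP response list were lower in the EGF culture by 2-fold or more. Genes that rise in damaged cells (4 mitochondrial genes and Malat1) summed to 53638 CPM in the EGF library and 90096 CPM in the BMP4 library, and their part in the results was not tested. Microglial markers were near 0, with 8 of 10 at 0 counts in the EGF culture and 8 of 10 in the BMP4 culture. Aplp1 had 54 counts in the APLP1-/- fresh library and 246 in the wildtype one. One cell barcode was shared by the EGF and BMP4 libraries, and it held 7 counts of Trp53i11 in the EGF library and 0 counts of any of the 8 genes in the BMP4 library. The fresh libraries shared 13 barcodes.

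Promoter sequence was matched for Trp53i11, Golga7b, Nrgn and Adm in the RefSeq table for GRCm38.p6, which gives 250 bases before to 50 bases after each start. These windows are shown because the genes were chosen for moving together between the cultures. Golga7b has 2 windows in the table, the others 1 each. The letters CCAAT, a box bound by the factor NF-Y, were found on the reverse strand in Trp53i11, Nrgn and the upstream window of Golga7b, and on neither strand in Adm or the other Golga7b window. Read on the gene's own strand the box is ATTGG, given in capitals within 30 bases at chr2:93187536-93187565 (plus strand) for Trp53i11, chr19:42247596-42247625 (plus strand) for Golga7b and chr9:37552743-37552772 (minus strand) for Nrgn.
Trp53i11: ggacggcgcgccATTGGcttgtgcgcggca
Golga7b: gaggggctttggATTGGcagtctttgaccg
Nrgn: aagtgtcttctgATTGGcttcgaggccgca
The box began at the transcript start the table gives for Trp53i11 (position 1), which lies inside the gene's full extent, at position 31 of the Golga7b transcript and 15 bases before the start of Nrgn. Of all 32851 promoters in the table, 37.4% hold CCAAT on either strand. The letters ACGTG (hypoxia response element core, in 19.6% of promoters), TGACG (20.8%), TGANTCA (AP-1, 7.81%), TGACGTCA (CRE, 1.79%), GGCGCC (SMAD, 11.9%) and TATAAA (13.6%) were in none of these 4 genes' windows on either strand. TGACGTCA contains TGACG, so these 2 searches overlap.

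All 8 are protein-coding genes on separate stretches of the genome. In GRCm38.p6, Trp53i11 lies at chr2:93187349-93201757, Nptx2 at chr5:144545887-144557478, Golga7b at chr19:42247578-42270348 and Scml4 at chr10:42858077-42960782. Adm lies at chr7:110627657-110629820 and Car3 at chr3:14863538-14872381. Nrgn and Barx2 share a chromosome, at chr9:37544493-37552745 and chr9:31846044-31913285. Values below are sums over whole genes.

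In the EGF culture all 8 genes were measured with at least 529 counts, and in the BMP4 culture with 2 to 57 counts. Trp53i11 had 15317 counts in the EGF culture and 57 in the BMP4 culture, or 456 CPM (95% Poisson interval 449 to 463) and 3.29 CPM (2.49 to 4.27). Nptx2 had 1428 and 5 counts, or 42.5 CPM (40.3 to 44.8) in the EGF culture and 0.289 CPM (0.0938 to 0.674) in the BMP4 culture. Golga7b had 824 and 3 counts, or 24.5 CPM (22.9 to 26.3) in the EGF culture and 0.173 CPM (0.0357 to 0.506) in the BMP4 culture. The intervals of each gene in the EGF culture and in the BMP4 culture did not overlap. This follows from choosing the genes by the ratio of these cultures and lends the contrast no weight.

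Scml4 had 529 counts in the EGF culture and 2 in the BMP4 culture, and Barx2 had 904 and 4, which gave 15.7 and 0.116 CPM for Scml4 and 26.9 and 0.231 CPM for Barx2. Adm had 2241 and 18 counts, or 66.7 CPM (64.0 to 69.5) in the EGF culture and 1.04 CPM (0.616 to 1.64) in the BMP4 culture. Car3 had 780 and 8 counts, or 23.2 CPM (21.6 to 24.9) in the EGF culture and 0.462 CPM (0.200 to 0.910) in the BMP4 culture. Nrgn had 3087 and 32 counts, or 91.9 CPM (88.7 to 95.2) in the EGF culture and 1.85 CPM (1.26 to 2.61) in the BMP4 culture. There was 1 library per culture, and all intervals cover counting error only.

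**Figure D1:**
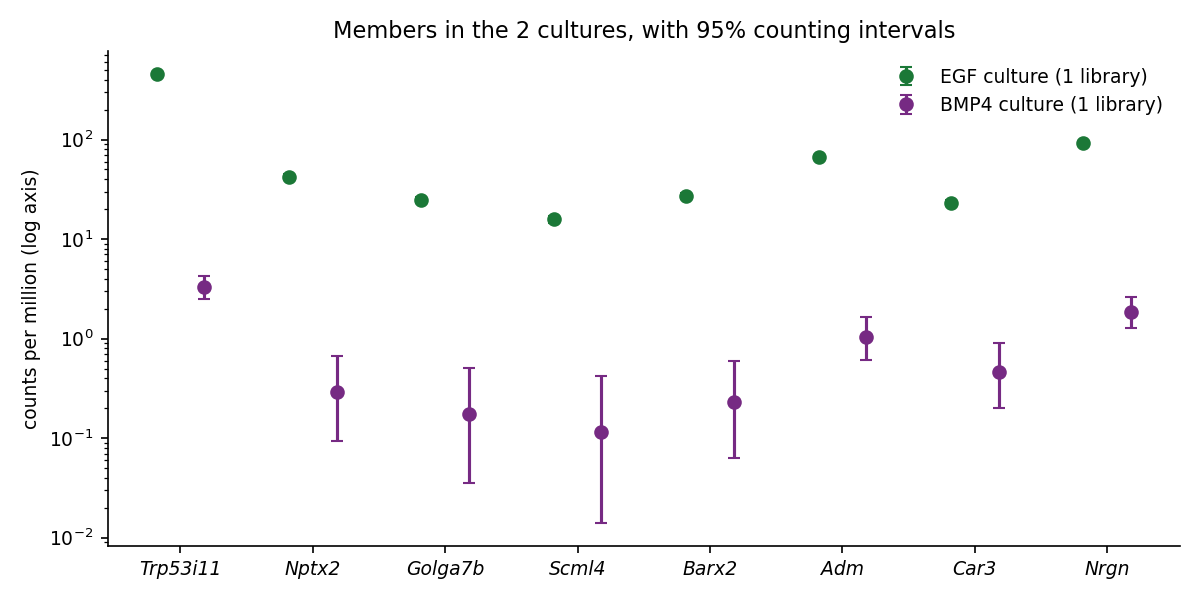
CPM (log axis) of the 8 genes in the EGF library (left point of each pair) and the BMP4 library (right point), with 95% Poisson intervals that cover counting error only. In the EGF library the genes lie between 15.7 and 456 CPM and in the BMP4 library between 0.116 and 3.29 CPM, with wide intervals in BMP4 where 2 to 57 counts stand behind a value.

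The ratio of the EGF over the BMP4 culture lay between 49.7 (35.1 to 72.8) for Nrgn and 147 (62.9 to 454) for Nptx2. These are ranks 2 to 9 among the 7993 genes with 500 or more counts over both cultures. The genes just outside were the lactate exporter gene Slc16a3 above them, at 505 (90.4 to 19964) with 1 BMP4 count, and the Hedgehog ligand Dhh (48.1), Cd24a (45.4) and the cyclin Ccnd1 (37.7) below. Of those 7993 genes, 15 (0.188%) had a ratio of 32 or more. The median log2 ratio was 6.73 for the 8 genes and -0.15 for all 14502 genes, and a TMM factor of -0.14 (log2, EGF over BMP4) raised every ratio a little, that of Trp53i11 to 152.6.

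The 8 genes differed in how widely they were detected in EGF cells. With every cell thinned to 4500 counts, a transcript of Trp53i11 was found in 74.9% of EGF cells (exact interval 72.5 to 77.1) and 1.80% of BMP4 cells (1.03 to 2.91). Nrgn was found in 31.5% of EGF cells (29.1 to 34.0) and 0.676% of BMP4 cells (0.249 to 1.47), and Adm in 24.1% (21.9 to 26.4) and 0.902% (0.390 to 1.77). Detection in the BMP4 culture was below 2% for each of these genes.

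Nptx2 was found in 15.6% of thinned EGF cells and 0.226% of BMP4 cells, Barx2 in 11.3% and 0.226%, and Car3 in 8.01% and 0.226%. Golga7b was found in 10.1% of thinned EGF cells and Scml4 in 6.53%, and both were at 0 of 887 thinned BMP4 cells. At that depth a count of 0 (taken as up to 3 cells) allows a count in up to 0.338% of cells, which limits detection and not the share of cells that express the gene, and without thinning 3 and 2 BMP4 cells held Golga7b and Scml4. A second draw of the thinning gave 8.44% for Golga7b in EGF cells. Without thinning, the shares in EGF cells ran from 26.03% (Scml4) to 96.5% (Trp53i11), and in BMP4 cells from 0.226% (Scml4) to 5.98% (Trp53i11). Detection moved with depth: Nptx2 was found in 56.7% of EGF cells above the median depth and 39.3% of those below it, at 42.4 and 42.7 CPM. Nrgn was found in 84.3% and 61.8%, at 100.1 and 78.2 CPM, so its level differed as well.

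Within the EGF culture the counts were not even over cells. The most counts in 1 EGF cell were 57 for Trp53i11, 25 for Nrgn, 23 for Adm, 14 for Golga7b, 12 for Nptx2, 11 for Barx2 and Car3, and 6 for Scml4. The tenth of EGF cells with the most counts of a gene (141 cells) held between 28.4% of its counts (Trp53i11) and 60.5% (Car3). These shares come from unthinned counts, depend on the level of the gene, and were not set against genes of a similar mean. They do not rank the genes by unevenness. The variance of thinned counts over their mean was 1.86 for Trp53i11, against a median of 1.15 for genes of a similar mean. For the other 7 genes it was between 1.07 (Scml4) and 1.25 (Golga7b), against medians of 1.01 to 1.05. Trp53i11 ranked 24 from the top beside 210 genes of a similar mean, Golga7b 39 beside 2501 and Nptx2 66 beside 2033. Car3 ranked 95 beside 2673, Adm 79 beside 1508, Barx2 154 beside 2427, Nrgn 137 beside 1194 and Scml4 385 beside 2644. The larger value of Trp53i11 thus does not make it the most uneven for its level. In the BMP4 culture no cell held more than 3 counts of any of the 8 genes (Nrgn), or more than 2 of the genes.

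Nearly every EGF cell held at least 1 of the 8 genes without thinning: 99.4% did, the median cell held 4, and 4 cells held all 8. In the BMP4 culture 776 of 887 cells (87.5%) held none, 102 held 1 and 9 held 2. The genes were found together about as often as their separate shares give. Over the 28 pairs in thinned EGF cells, the median of observed over expected co-detection was 1.04, and it lay between 0.726 (Nptx2 with Barx2, 18 cells against 24.8 expected) and 1.39 (Nptx2 with Scml4, 20 against 14.4). The most cells behind a departure were those of Adm with Nrgn, 123 against 107.1 expected, with a Pearson r of log thinned counts of 0.082 over the 1410 cells.

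By the fixed likeness measure, the Pearson r of log thinned counts over the 1410 EGF cells, no gene followed one of the 8 closely. The highest value was 0.158, for Trp53i11 with the ribosomal protein gene Rps2. The next genes for Trp53i11 were also ribosomal protein genes, Rpsa (0.144) and Rps3a1 (0.140). Golga7b reached 0.141 with Fbxw11, and the 24 highest values (3 for each gene) lay between 0.0957 and 0.158. The genes most like Nptx2 were Rfx4 (0.119), Ero1l (0.115) and Hk2 (0.114), of which Ero1l and Hk2 are in the hypoxia list used below. Those most like Nrgn were Mt3, Pcp4l1 and Pbxip1. For Adm they were Tpcn1, Ctnnd2 and Irs2, and for Car3 Ubxn2a, Wwtr1 and Fos. Over all pairs of the 7092 genes found in 5% or more of thinned EGF cells, the 99th percentile of r was 0.0728. The 24 values were picked as the highest in sparse counts of 1 library. How high such picked values run without any link between the genes was not tested, so nothing is concluded from them.

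The cultures differed in the share of cells marked as cycling. Within the EGF culture none of the 8 genes was much higher in cells so marked. A thinned count of Mki67, Top2a or Cdk1 marked 735 of 1410 EGF cells (52.1%) as cycling and 70 of 887 BMP4 cells (7.89%). All other cells are called non-cycling. In the EGF culture Mki67 had 102.8 CPM, Top2a 189 and Cdk1 60.4, so a dividing cell can lack a thinned count of them. The share of dividing cells among those called non-cycling was not tested. Trp53i11 was found in 73.3% of cycling and 76.6% of non-cycling EGF cells, Adm in 24.9% and 23.3%, Nrgn in 31.7% and 31.3%, Barx2 in 11.8% and 10.7%, and Scml4 in 6.26% and 6.81%. Nptx2 was found in 12.8% of cycling (10.5 to 15.4) and 18.7% of non-cycling cells (15.8 to 21.8), Golga7b in 8.03% and 12.3%, and Car3 in 6.67% and 9.48%. Without thinning, at median depths of 24899 counts in cycling and 21421 in non-cycling cells, Nptx2 was found in 47.5% of cycling and 48.6% of non-cycling cells and Golga7b in 29.4% and 31.9%. Car3 turned round, at 31.4% and 28.2%, so no direction is given for its share. The mean thinned level of Nptx2 in cycling over non-cycling cells was 0.681 (0.531 to 0.873), that of Golga7b 0.729 (0.529 to 1.002) and that of Trp53i11 0.916 (0.850 to 0.987). These 3 ratios, and those of Car3 (0.748) and Scml4 (0.900), stayed below 1 without thinning and with cycling taken from S phase and G2/M lists. Nrgn (1.09) stayed above 1, and Adm (1.03) and Barx2 (1.02) were below 1 under both alternatives. The median of this ratio was 1.06 (quartiles 0.921 to 1.24) over the 7092 genes found in 5% or more of thinned EGF cells. Cells of 1 library are not replicates, and these intervals hold counting error only.

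**Figure D2:**
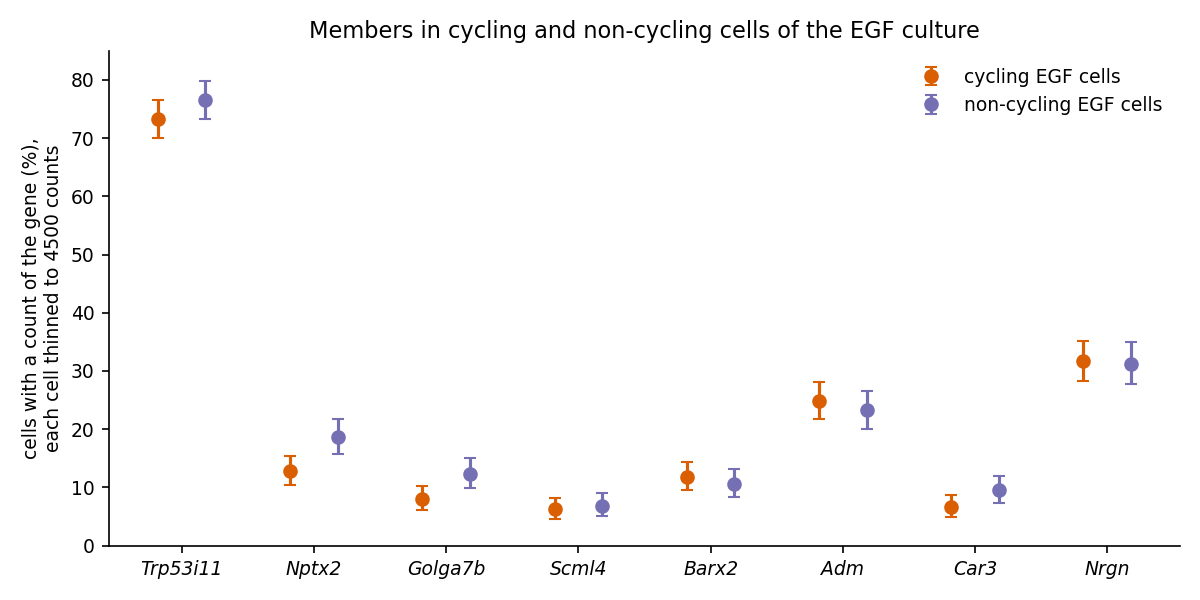
Share of EGF cells with a count of each gene (percent, each cell thinned to 4500 counts) among 735 cycling cells (left point of each pair) and 675 non-cycling cells (right point), with exact 95% binomial intervals. Non-cycling cells are those with no thinned count of Mki67, Top2a or Cdk1, and dividing cells can be among them. The intervals cover counting error only, since cells of 1 library are not replicates. For Nptx2 the cycling cells lie at 12.8% and the non-cycling cells at 18.7%, and without thinning at 47.5% and 48.6%.

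The EGF over BMP4 contrast was present in cells called non-cycling and, on very few BMP4 counts, in cells marked as cycling. The genes were chosen by this contrast, and 817 of 887 BMP4 cells were called non-cycling. A high ratio in non-cycling cells thus follows in large part from the choice and is given as a description. The non-cycling cells can include dividing cells with no thinned marker count. In non-cycling cells Trp53i11 had 480 CPM in the EGF culture and 3.41 CPM in the BMP4 culture, Nptx2 49.7 and 0.252, Golga7b 27.95 and 0.126, Adm 68.9 and 0.946, and Nrgn 88.7 and 1.58. The ratio of the EGF over the BMP4 culture in non-cycling cells lay between 56.3 (38.0 to 87.3) for Nrgn and 222 (61.0 to 1836) for Golga7b. In cycling cells Nrgn had 94.3 CPM in the EGF culture and 4.81 in the BMP4 culture (7 BMP4 counts), a ratio of 19.6 (9.49 to 48.8). The ratio in cycling cells was 16.1 (4.42 to 133) for Car3, 31.5 (10.8 to 153) for Adm, 31.8 (5.68 to 1261) for Golga7b, 53.8 (9.63 to 2128) for Nptx2 and 212 (72.5 to 1028) for Trp53i11, on 1 to 3 BMP4 counts each. For Car3, Adm, Golga7b, Nptx2 and Nrgn it was below the ratio in non-cycling cells by more than 1.5 times, with intervals that overlap. Scml4 had 263 counts in cycling EGF cells and 0 in cycling BMP4 cells, and Barx2 485 and 0. Of the BMP4 cells with a count, 3 of 53 with Trp53i11, 3 of 18 with Adm and 5 of 27 with Nrgn were cycling, beside 70 of all 887 BMP4 cells.

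The partners and relatives of the 8 genes were set beside them. Of all 14502 genes, 15.4% were higher in the EGF culture by 2-fold or more and 23.1% were higher in the BMP4 culture by as much. The lists were drawn up by family or pathway, and the counts below leave out the 8 genes themselves.

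Adm is a target of the hypoxia-inducible factors. Of the 28 other measured genes of a hypoxia list, 11 were higher in the EGF culture by 2-fold or more and 0 in the BMP4 culture, with a median log2 ratio of 0.48. Those with 100 or more counts and the largest ratios were Slc16a3 (505) and Ankrd37 (22.3 CPM in the EGF culture and 2.72 in the BMP4 culture, ratio 8.22). The lowest were Plod2 (0.626) and Mxi1 (0.640), and the angiogenic factor Vegfa had 32.4 CPM in the EGF culture and 45.0 in the BMP4 culture. Over thinned EGF cells, the Pearson r with the summed hypoxia list was 0.093 for Adm (itself left out) and 0.097 for Nptx2. For the other chosen genes it lay between -0.064 (Trp53i11) and 0.047 (Golga7b), and these values were not tested. Among the partners of adrenomedullin, the receptor gene Calcrl had 10.6 CPM in the EGF culture and 6.06 in the BMP4 culture (ratio 1.74), while the co-receptor gene Ramp1 had 130 and 1017 CPM (0.128), the scavenger receptor gene Ackr3 1.16 and 8.61 (0.135), and Pam, whose enzyme amidates the peptide, 39.2 and 86.3 (0.455).

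Of 24 other genes that p53 is known to activate, 2 passed 2-fold towards the EGF culture and 2 towards the BMP4 culture, with a median log2 ratio of -0.06. The cell cycle inhibitor gene Cdkn1a had 437 CPM in the EGF culture and 424 in the BMP4 culture, and Mdm2, which encodes the p53 ligase, 57.1 and 62.0. The 2 higher in the EGF culture were Gtse1 (3.49) and Plk2 (2.44), and the 2 higher in the BMP4 culture were Fas (0.245) and Sesn1 (0.492).

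The pentraxin gene Nptx1, a relative of Nptx2, had 68.2 CPM in the EGF culture and 278 in the BMP4 culture (ratio 0.245), and the AMPA receptor genes Gria2, Gria3 and Gria4 had ratios of 0.314, 0.298 and 0.106. The pentraxin receptor gene Nptxr was higher in the EGF culture, at 4.29 CPM against 1.04 (4.12). Among calmodulin binders, Nrgn was joined by Gap43, a growth-cone protein gene with the same kind of calmodulin-binding IQ motif, at 318 CPM in the EGF culture and 34.2 in the BMP4 culture (9.29), and by Camk2a (8.86). Pcp4, another small IQ-motif protein gene, was lower, at 3.10 CPM in the EGF culture and 413 in the BMP4 culture (0.00749). In all, 6 of 11 others of that list passed 2-fold towards the EGF culture and 3 towards the BMP4 culture.

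Car3 had relatives at both ends. Car8, whose protein lacks catalytic activity, had 48.1 CPM in the EGF culture and 3.93 in the BMP4 culture (12.2), whereas Car10 had 0.179 and 29.4 CPM (0.00607) and Car5b 0.238 and 11.5 CPM (0.0207). Of 10 others, 2 passed 2-fold towards the EGF culture and 6 towards the BMP4 culture. Beside Golga7b, 0 of 11 other palmitoylation genes passed 2-fold towards the EGF culture and 1 towards the BMP4 culture (Zdhhc18, 0.480), and its paralog Golga7 had 153 CPM in the EGF culture and 188 in the BMP4 culture (0.813). Beside Scml4, 3 of 20 other Polycomb genes passed 2-fold towards the EGF culture, against 15.4% of all genes, and 1, Phc3 (0.461), towards the BMP4 culture. Their median log2 ratio was 0.06. The largest ratios were those of Cbx2 (7.56) and the methyltransferase gene Ezh2 (5.45), while Scml2 (0.894) and Scmh1 (0.984) were near 1. Barx2 was joined by Gsx1, a homeobox gene of ventral forebrain progenitors, with 279 counts in the EGF culture and 3 in the BMP4 culture (47.9), and by Nkx2-2 (2.62). Dlx2 (0.208) and Pax6 (0.360) were lower in the EGF culture, and 3 of 7 other homeobox genes passed 2-fold towards the EGF culture and 2 towards the BMP4 culture.

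**Figure D3:**
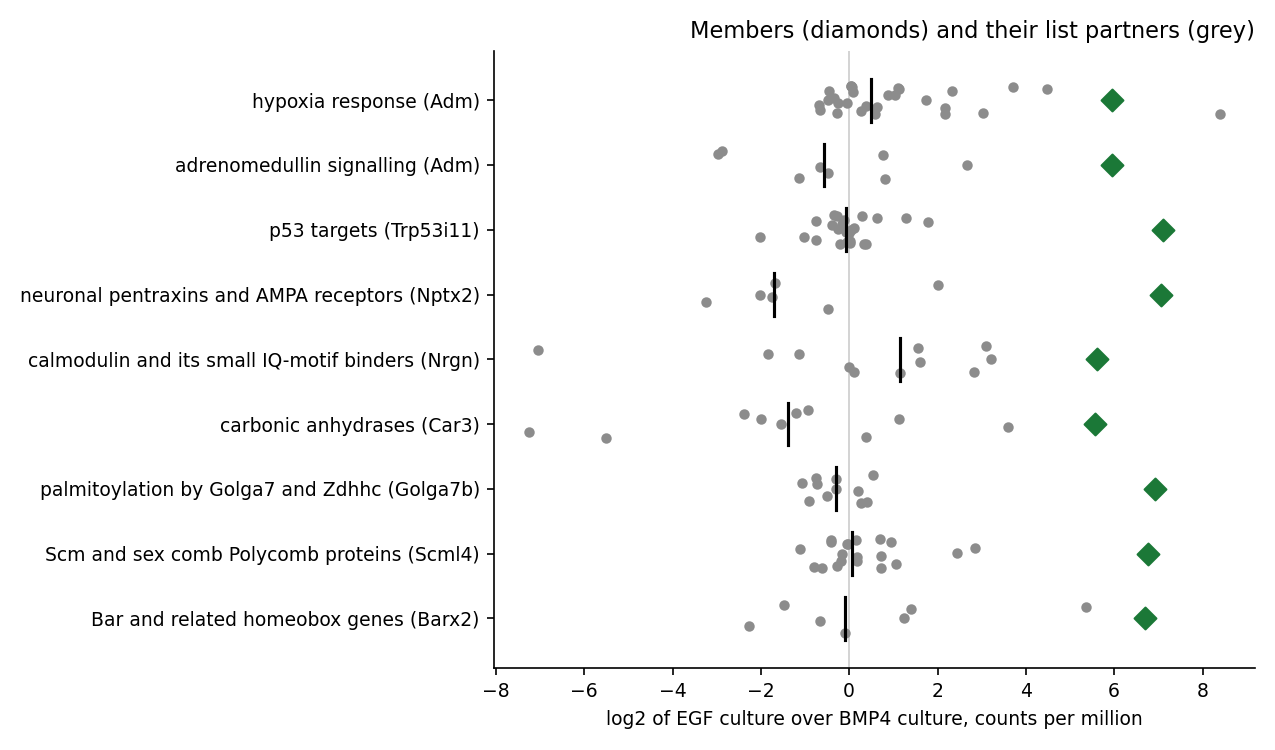
Log2 of the EGF over the BMP4 culture in CPM, for the genes of 9 lists (grey points), the chosen gene of each list (green diamond) and the median of the others (black bar). The diamonds lie between 5.56 and 7.10, and the medians of the others between -1.71 (pentraxins and AMPA receptors) and 1.14 (calmodulin and its binders).

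Nrgn and Golga7b are known from neurons, and markers of mature neurons were low in both cultures. Over the marker list, 6 of 9 measured genes passed 2-fold towards the EGF culture and 1 towards the BMP4 culture, and their summed level was 55.1 CPM in the EGF culture and 51.4 in the BMP4 culture. Snap25 was found in 18.5% of EGF cells and 7.33% of BMP4 cells, and Syt1 in 1.99% and 0.676%, against 73.0% and 3.04% for Nrgn in the same cells without thinning. The Pearson r with the summed mature neuron markers over EGF cells was -0.011 for Nrgn and 0.0066 for Golga7b.

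In freshly isolated cells the 8 genes were sparse. Barx2 was listed in neither fresh table, Adm was not listed in the APLP1-/- table and had 1 count in the wildtype table, Scml4 had 1 and 2 counts, and Car3 had 5 and 4. Trp53i11 had 15 counts (12.2 CPM, 6.84 to 20.2) in the APLP1-/- library and 29 (25.6 CPM, 17.1 to 36.7) in the wildtype library, and Nptx2 had 62 (50.5 CPM) and 65 (57.4 CPM). Golga7b had 23 counts (18.7 CPM) in the APLP1-/- library and 9 (7.94 CPM) in the wildtype library, and Nrgn had 25 (20.4 CPM) and 19 (16.8 CPM). With 1 library per genotype there is no test between genotypes. Of 4088 fresh cells 158 held any of the 8 genes and 7 held more than 1.

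Fresh cells were clustered without the 8 genes, and clusters were named from marker lists. Classes were rebuilt here and no annotation by the authors was used, so each name means marker-like only. The quiescent stem cell and astrocyte-like class held 1711 cells, the active stem cell and transit-amplifying-like class 707, the neuroblast-like class 528, the mature neuron-like class 55, and 969 cells stayed unnamed.

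Nptx2 was found mainly in the active class and in unnamed clusters. The active class had 71 of its 127 counts, in 8.20% of cells (6.29 to 10.5) at 87.5 CPM (68.4 to 110.4), with 47 counts (93.8 CPM) in the APLP1-/- library and 24 (77.5 CPM) in the wildtype library. The quiescent class had 5 counts (6.95 CPM, 2.25 to 16.2, 0.234% of cells) and the neuroblast-like class 2 (6.43 CPM, 0.778 to 23.2, 0.379%). Median depth was 921 counts in the active, 343 in the quiescent and 436.5 in the neuroblast-like class. The unnamed clusters held 49 counts (122 CPM, 90.1 to 161), 12 (63.1 CPM) in the APLP1-/- library and 37 (174.5 CPM) in the wildtype library. In the wildtype library they were thus above the active class. A cluster led by the immediate early genes Fos, Junb and Klf4 had 17 counts in 15 of 199 cells (137 CPM). Another had 20 in 10 of 285 cells (156 CPM), 19 of them wildtype, and 1 cell held 9. A further cluster had 11 in 4 of 60 cells (420 CPM), 10 of them wildtype, and 1 cell held 8. When cells were assigned one by one by summed marker counts in place of clusters, the quiescent class had 53.8 CPM and the active class 75.9 CPM, so the low level in quiescent cells rests on the clusters.

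Nrgn and Golga7b were found in the mature neuron-like class. That class of 55 cells, led by striatal neuron genes such as Drd1, Penk and Tac1, held 42 of 44 counts of Nrgn, in 15 cells at 693 CPM (499 to 937), with 23 counts in 9 APLP1-/- cells and 19 in 6 wildtype cells. The other 2 Nrgn counts were in the active class (2.47 CPM), and the quiescent class had 0 counts, which allows up to 4.17 CPM (3 counts). Golga7b had 24 of 32 counts in 6 mature neuron-like cells (396 CPM, 254 to 589), of which 23 came from the APLP1-/- library, 11 of them from 1 cell. The other 8 were in 3 neuroblast-like cells of the wildtype library (25.7 CPM over both libraries), and the active and quiescent classes had 0 counts, which allows up to 3.70 and 4.17 CPM at 3 counts. In the mature neuron-like class Golga7b had 550 CPM (349 to 826) in the APLP1-/- library and 53.2 CPM (1.35 to 296, 1 count) in the wildtype library, and the wildtype neuroblast-like class was also at 53.2 CPM, so its level in mature neuron-like cells rests on the APLP1-/- library. In the EGF culture, Golga7b had 24.5 CPM and Nrgn 91.9 CPM, with protocols and depths that differ from those of the fresh libraries.

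Trp53i11 was spread over classes. The neuroblast-like class had 16 counts (51.4 CPM, 29.4 to 83.5), the active class 15 (18.5 CPM, 10.4 to 30.5) and the quiescent class 8 (11.1 CPM, 4.798 to 21.9), all 8 of them in the wildtype library. Over both libraries the intervals of the neuroblast-like and quiescent classes did not overlap, and those of the active class overlapped with both. In the wildtype library alone the neuroblast-like class (59.8 CPM, 27.3 to 113.5) and the quiescent class (19.2 CPM, 8.28 to 37.8) overlapped. The separation thus needs the APLP1-/- library, where the quiescent class had 0 counts and the neuroblast-like class 7. Of the 9 Car3 counts, 7 were in the active class, 4 of them in 1 cell, and the 3 Scml4 counts were in the quiescent class.

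**Figure D4:**
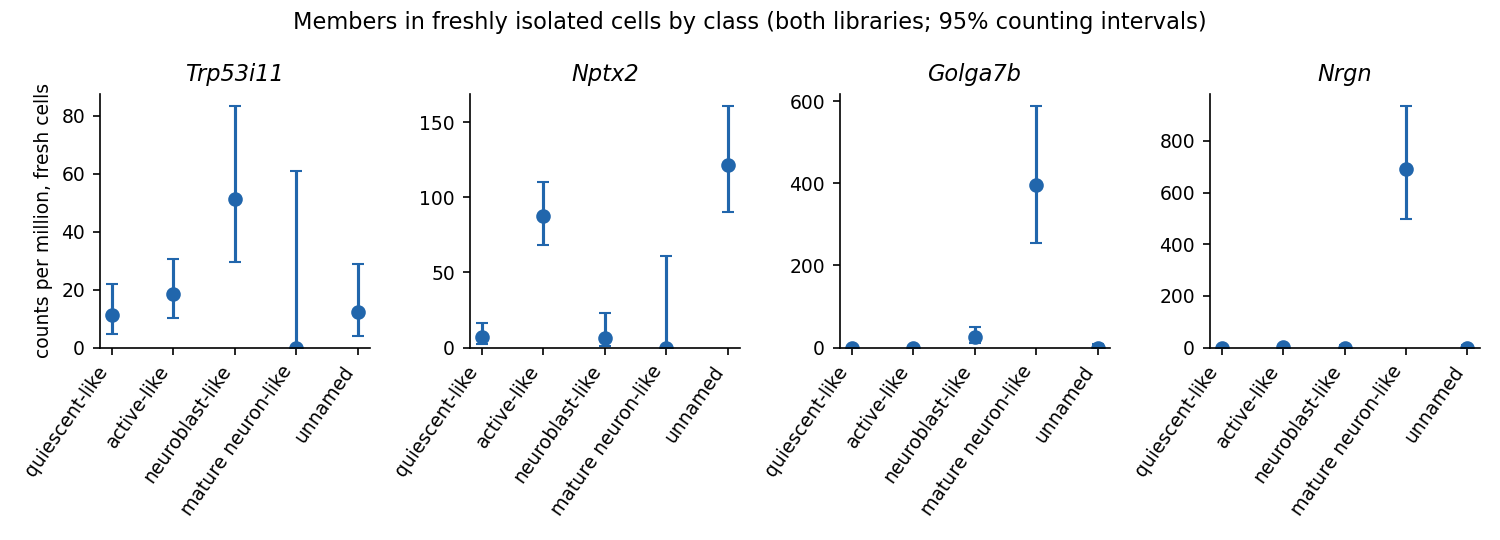
CPM of Trp53i11, Nptx2, Golga7b and Nrgn in freshly isolated cells by marker-defined class, both libraries together, with 95% Poisson intervals and an axis of its own for each gene. Nrgn (693 CPM) and Golga7b (396 CPM, with 23 of 24 counts from the APLP1-/- library) are high in the mature neuron-like class, Nptx2 in the active (87.5 CPM) and unnamed (122 CPM) cells, and Trp53i11 is at 51.4 CPM in the neuroblast-like class.

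All 8 genes were detected in the neurosphere input RNA. Trp53i11 had 322 and 390 CPM of the library total in the 2 inputs, Car3 176 and 193, Adm 102 and 86.0, and Nptx2 38.8 and 50.6. Nrgn had 36.1 and 37.3 CPM, Barx2 15.5 and 11.0, Golga7b 12.4 and 10.4, and Scml4 5.90 and 8.10. Neither input was higher for all 8 genes. Beside them, the EGF culture had 23.2 CPM of Car3 and 91.9 CPM of Nrgn; the protocols differ, and no comparison was made.

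The precipitates ask which mRNAs CPEB4, a protein that binds mRNA 3′ ends and acts on their polyadenylation, carries in these cells. Cpeb4 itself was no lower where it is labelled deleted, at 286 and 110 CPM in the libraries labelled CPEB4-/- and 236 and 77.0 CPM in the wildtype ones; the labels do not say which part of the gene is missing. Between the precipitates labelled CPEB4-/- and the wildtype ones, edgeR's quasi-likelihood test with Benjamini-Hochberg adjustment over 17062 genes called 0 genes (0% in either direction; 136 had an unadjusted p under 0.05, and DESeq2 called 0). With no low-count filter 50 genes were called. The 8 genes had log2 fold changes from -1.24 (SE 0.60) for Golga7b to 0.30 (SE 1.04) for Adm, each with an adjusted p of 1 in edgeR. Adm had 1.77 and 33.7 TMM-scaled CPM in the 2 libraries labelled CPEB4-/-, and 16.9 and 11.0 in the wildtype ones, so the groups overlapped. For Golga7b the scaled values were 0.718 and 0.584 in the libraries labelled CPEB4-/- and 1.16 and 2.06 in the wildtype precipitates, from 15, 3, 16 and 26 counts.

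Against IgG, the wildtype CPEB4 precipitates also gave 0 calls (0% in either direction; 1360 genes had an unadjusted p under 0.05, and DESeq2 called 14). With only these groups in the fit 534 genes were called, and with no low-count filter 165. The log2 fold changes of the 8 genes ran from -0.41 (SE 0.45) for Car3 to 1.07 (SE 0.72) for Barx2, with edgeR adjusted p of 0.631 to 0.953. Barx2 had 3.55 and 2.45 scaled CPM in wildtype precipitates of CPEB4 and 2.56 and 0.480 in the IgG precipitates, from 49, 31, 11 and 3 counts.

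Relative to the input, the wildtype CPEB4 precipitates held less of 4 of the 8 genes and more of none, while 27.6% of all genes were called lower and 27.4% higher. Nrgn had 1.74 and 2.93 scaled CPM in the CPEB4 precipitates and 12.6 and 13.7 in the inputs, a log2 fold change of -2.50 (SE 0.61, edgeR adjusted p = 0.00706). Car3 had 11.0 and 14.7 in the CPEB4 precipitates and 61.7 and 71.4 in the inputs, a log2 fold change of -2.37 (SE 0.46, edgeR adjusted p = 0.00248). Both genes were lower in each precipitate than in each input.

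Nptx2 had 4.20 and 4.28 scaled CPM in the CPEB4 precipitates and 13.6 and 18.7 in the inputs (log2 -1.93, SE 0.60, edgeR adjusted p = 0.0205). Golga7b had 1.16 and 2.06 in the CPEB4 precipitates and 4.35 and 3.85 in the inputs (log2 -1.35, SE 0.52, edgeR adjusted p = 0.0495). This last call was lost with RLE factors, in DESeq2 (adjusted p = 0.0851), with a replicate block (edgeR adjusted p = 0.0652) and when any 1 of the 4 libraries compared was left out. The Nptx2 call was lost without either CPEB4 precipitate or without input replicate 2, and the Nrgn call without CPEB4 precipitate replicate 1. Trp53i11 (log2 -1.33, edgeR adjusted p = 0.0584), Adm (-1.28, 0.312), Barx2 (-0.66, 0.378) and Scml4 (0.23, 0.723) did not pass. Trp53i11 was called lower in DESeq2 (adjusted p = 0.0385), and both Trp53i11 and Adm were called lower by edgeR with no low-count filter and with only the groups compared in the fit. Of the lists that hold these genes, with the 8 genes included, the calmodulin list had 1 of 11 tested genes called higher than in the input and 5 lower, the carbonic anhydrases 1 and 4 of 10, and the pentraxin and AMPA receptor list 3 and 1 of 7. The p53 targets had 1 higher and 8 lower of 25, the hypoxia list 3 and 7 of 27, the palmitoylation list 2 and 2 of 12, and the Polycomb list 7 and 3 of 23.

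For the genes called lower than in the input, the IgG precipitates also lay below both inputs. Nrgn had 3.49 and 2.56 scaled CPM there, Car3 20.7 and 13.6, Nptx2 7.21 and 2.56, and Golga7b 2.79 and 1.28. Scml4 was not low there, at 4.65 and 1.92 in the IgG precipitates and 2.06 and 2.99 in the inputs. The precipitates and inputs also differed in make-up. Cmss1 took 9.92% and 12.4% of counts in wildtype CPEB4 precipitates and 0.0106% and 0.0114% in the inputs, and mitochondrially encoded genes took 0.0881% and 1.25% in the CPEB4 precipitates and had 0 counts in the inputs. The part of this make-up in the members' fold changes was not tested. Scaling decides their size: with library totals in place of TMM factors all log2 fold changes over the input shift by -1.48, the calls over all genes become 1089 higher and 7924 lower, against 4678 and 4702, and 7 of the 8 genes are called lower. The median log2 fold change was -1.34 for the 8 genes and -0.09 for all genes with TMM factors, and -2.82 and -1.57 with library totals.

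**Figure D5:**
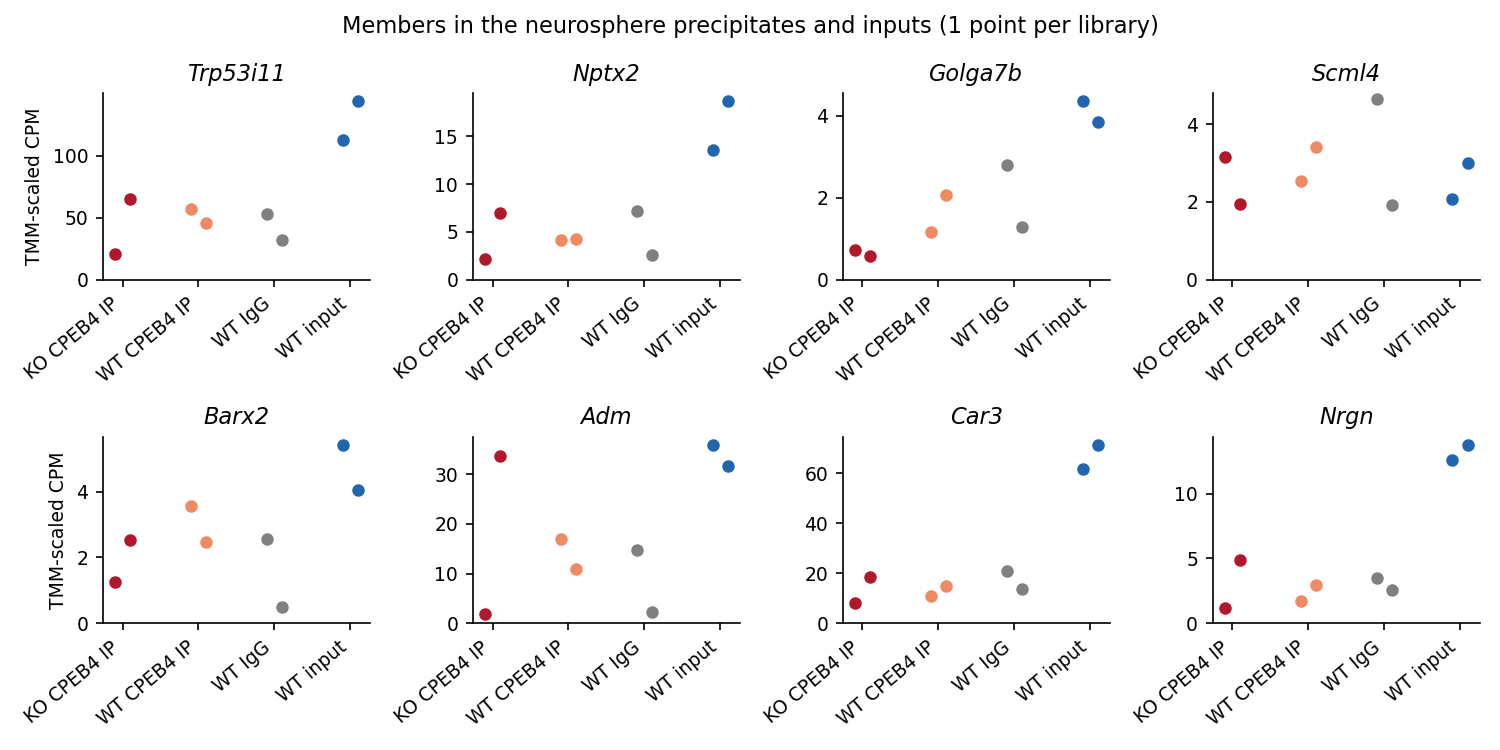
TMM-scaled CPM of the 8 genes in each neurosphere library, with 2 points per group in the order CPEB4 precipitates labelled CPEB4-/-, wildtype CPEB4 precipitates, wildtype IgG precipitates and wildtype inputs, and an axis of its own for each gene. Nrgn lies at 1.74 and 2.93 in wildtype CPEB4 precipitates and at 12.6 and 13.7 in the inputs, and Scml4 shows no separation of the groups.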

How the data were processed

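Single-cell libraries of 2 cultures and 2 fresh samples and 8 neurosphere libraries were used. The authors deposited raw counts per gene and cell or per gene and library; the submitters' processing notes name Bowtie2, SAMtools, Cell Ranger and the build mm10, with no role or version. No source used here gives the strand setting, the cell filters, or whether single-cell counts are molecules or reads. Genes were named through the supplied table of IDs and symbols. All deposited cells were kept, with no doublet caller, and counts were summed per library.

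Cells were thinned to 4500 counts (seed 1). Level intervals are Poisson, ratio intervals conditional binomial and share intervals Clopper-Pearson, all at 95%, and cover counting error only; a count of 0 allows up to 3 counts. Fresh cells were clustered with scanpy 1.11.5 (genes of both tables without the 8 genes, Aplp1 and near-duplicate genes, 2000 variable genes, 30 components, 15 neighbours, Leiden resolution 1.0). A cluster took a name when 3 or more of that class's markers were 2-fold higher in it, more than of any other class.

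Neurosphere counts were tested with edgeR 4.0.16 (quasi-likelihood, filterByExpr, TMM, 4 groups in 1 fit, adjusted p under 0.05) and, as an alternative, DESeq2 1.42.0. The ratio intervals, the thinning and the edgeR comparison of CPEB4-/- with wildtype precipitates were run on simulated counts. The spread and the large changes simulated for that comparison were set beforehand and can differ from these libraries. Clustering, class names, cycling and co-detection were not simulated. Genes named are the 8, the most and least changed of the lists that hold one of them (100 or more counts, 2 each way), 3 genes most like each by Pearson r, and neighbours in the ranking; other named relatives, receptors and markers were chosen after their values were seen. The 8 genes and all lists were chosen with earlier results of these data known.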

Additional observations from a re-analysis of the deposited data

How the results depend on the processing

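Neurosphere groups had 2 libraries, so with 1 left out the lone library is assumed to vary like the other groups. Genes called between CPEB4 precipitates labelled CPEB4-/- and wildtype numbered 50 with no low-count filter and 0 to 4 with 1 library left out (4 without CPEB4-/- replicate 1). Wildtype CPEB4 precipitates over IgG gave 165 with no low-count filter, 14 in DESeq2, 534 with only the 2 groups compared and 0 with 1 library left out. Over the input the count, 9380, ran from 5067 (without wildtype CPEB4 precipitate replicate 1) to 7001 with 1 library left out. The labels do not say that replicate numbers pair the samples. Deviations of same-numbered libraries correlated at 0.10 to 0.33 among the inputs and both CPEB4 groups and at -0.37 to -0.18 where IgG was one of the groups, and 2 numbers are too few to settle it; the replicate block gave 9105 calls over the input and 0 in both other comparisons. IgG numbers crossed within the block, chosen after seeing the data, gave 1 call against IgG. Library totals in place of TMM factors were also chosen after seeing the data.

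No fold change called in the main test reversed. Uncalled ones did. For CPEB4-/- over wildtype, library totals gave log2 -0.56 (Nptx2), -0.73 (Adm), -0.48 (Car3) and -0.38 (Nrgn), and the replicate block gave -0.02 (Nptx2) and -0.00 (Car3). Leaving out 1 library gave -1.33 to 0.32 (Trp53i11), -0.98 to 0.70 (Nptx2), -0.63 to 0.09 (Scml4), -2.98 to 1.25 (Adm), -0.66 to 0.50 (Car3) and -1.02 to 1.04 (Nrgn). For wildtype over IgG, library totals gave 0.91 (Nptx2), 0.74 (Golga7b), 0.95 (Scml4), 0.64 (Car3) and 0.66 (Nrgn), and leaving out 1 library gave -0.06 to 0.68 (Trp53i11), -0.77 to 0.72 (Nptx2), -0.80 to 0.32 (Golga7b), -0.65 to 0.62 (Scml4) and -0.07 to 2.63 (Adm). Over the input Scml4 had -0.05 with no low-count filter, -1.25 with library totals and -0.08 to 0.46 with 1 library left out. In these cases the cause was not tested.

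In the cultures, the EGF over BMP4 ratios stayed above 20 with thinning, in non-cycling cells, without the deepest cells or the top cell and with TMM (the lowest 20.8 for Scml4, a bound against 3 counts after thinning), and in cycling cells Car3 (16.1) and Nrgn (19.6) were below 20. The genes were chosen by this ratio, so its staying high is a description only. Depth limits the BMP4 values, which rest on 2 to 57 counts, and the fresh values, where single cells carry much of a count.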
